A study of Mus musculus with 8 samples.

Results

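Hmga1, Hmga2, Igf2bp1, Igf2bp2, Igf2bp3, Lin28a and Lin28b belong to gene families called oncofetal. The name stands for genes that the embryo uses widely, that most adult tissues keep low or silent, and that many tumors switch on again. The libraries hold no normal adult tissue, so how far each gene fits that description was not tested. These 7 genes of the 23952 in the table were taken by their symbols, each through the transcript of that symbol whose RPKM averaged highest in the 8 libraries. They were picked as a set with earlier results of the same libraries known, so their tests below give the size of each difference against the spread between libraries and are not independent evidence of a pattern. The data are RNA sequencing libraries from Lewis lung carcinoma, a transplantable mouse lung tumor line, with 2 libraries in each of 4 groups. LLC are the dTomato-positive cancer cells, Fibroblast are the GFP-positive cells, TAM are F4/80-positive macrophages that carried injected Alexa 647-collagen and neither dTomato nor GFP, and Total tumor is the whole tumor.

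All groups came from tumors that dTomato-expressing Lewis lung carcinoma cells had formed under the skin, in both flanks, of transgenic Col1a1-GFP mice. The dTomato came from a pCEFL vector kept under G418 selection, the GFP marks cells in which the Col1a1 transgene is active, and the collagen was given 24 h before sorting. The protocol sorts only TAM on collagen uptake and calls them M2-TAMs, and it gives neither the age of the mice nor a count of animals. The labels leave out whether the libraries of 1 group stem from different animals, so each p-value speaks of library-to-library spread, which may be technical. A single cancer cell line stands for the tumor cells throughout.

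HMGA1 and HMGA2 are small chromatin proteins that bind AT-rich DNA in the minor groove and bend it for transcription factors. IGF2BP1, IGF2BP2 and IGF2BP3 are RNA-binding proteins that hold, move and protect target messenger RNAs, among them those of Igf2, H19, Myc and Actb. LIN28A and LIN28B bind precursors of the let-7 microRNAs and block their maturation. Mature let-7 in turn represses messenger RNAs that carry matching sites, and Hmga2 and Lin28b are textbook let-7 targets, so these families are usually drawn as parts of 1 circuit. In mouse embryos HMGA2 is also known to raise Igf2bp2 transcription.

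The sequences that link these genes are the let-7 seed and its match in their 3′ untranslated regions (UTRs), shown here because all 7 genes share them. The mouse RefSeq (GRCm38.p6) set used here held 9 mature let-7 and miR-98 5p sequences from 11 loci, fewer than the 14 hairpin loci read below. All 9 have the same seed, bases 2 to 8, in capitals in 3 of them below.
mmu-let-7a-5p: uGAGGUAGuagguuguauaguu
mmu-let-7g-5p: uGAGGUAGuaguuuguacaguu
mmu-miR-98-5p: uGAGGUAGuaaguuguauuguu

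The seed pairs with CTACCTC. On the sense strand of the GENCODE M21 transcripts (GRCm38) that carry the same RefSeq accessions, each of the 7 genes had at least 1 such match in its 3′ UTR, and there were 17 in all. Of the 3′ UTRs of 12279 tested genes, 9.01% held 1 or more. Each site is printed 5′ to 3′ with the match in capitals, 14 bases before it and 1 base after it. All 4 sites of Hmga2, which lies on chromosome 10, are given, because few UTRs hold as many, and for the other genes the site nearest the stop codon is given.
Hmga2 site 1, chr10:120364224-120364245, minus strand: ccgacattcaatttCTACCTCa
Hmga2 site 2, chr10:120362987-120363008, minus strand: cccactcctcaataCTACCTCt
Hmga2 site 3, chr10:120362549-120362570, minus strand: tgatttgcaaggaaCTACCTCc
Hmga2 site 4, chr10:120361691-120361712, minus strand: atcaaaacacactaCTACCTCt
Hmga1 site 1, chr17:27563278-27563299, plus strand: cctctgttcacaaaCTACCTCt
Igf2bp1 site 1, chr11:95961778-95961799, minus strand: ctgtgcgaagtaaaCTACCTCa
Igf2bp2 site 1, chr16:22059473-22059494, minus strand: cacacaaataaaagCTACCTCa
Igf2bp3 site 1, chr6:49086787-49086808, minus strand: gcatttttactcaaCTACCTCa
Lin28a site 1, chr4:134005189-134005210, minus strand: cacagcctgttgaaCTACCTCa
Lin28b site 1, chr10:45381022-45381043, minus strand: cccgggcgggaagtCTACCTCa

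The number of matches differed between the genes. Hmga2 held 4 in a 3′ UTR of 2977 bases, Igf2bp1 held 4 in 6337 bases and Lin28b held 4 in 4445 bases. Among other 3′ UTRs of 0.8 to 1.25 times the same length, 1 of 1360 had as many or more as Hmga2, 0 of 286 as Igf2bp1 and 2 of 758 as Lin28b. Lin28a held 2 in 2775 bases, a number reached by 35 of 1461 UTRs of like length. Hmga1, Igf2bp2 and Igf2bp3 held 1 each, in 3′ UTRs of 1177, 1784 and 2119 bases, and 8.50, 12.3 and 13.5% of UTRs of like length held at least 1. The first match of Hmga2 began 21 bases after the stop codon and that of Lin28b began 36 bases after it. A match is a run of letters, and these libraries do not measure whether let-7 acts there.

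**Figure D1:**
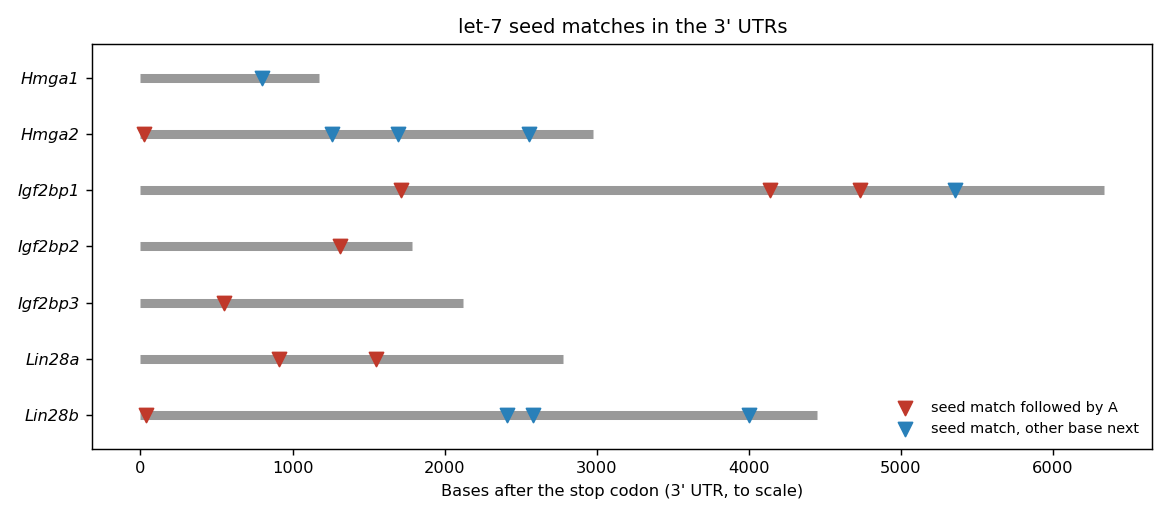
Positions of let-7 seed matches (triangles) along the 3′ UTR of each gene (grey bars), in bases after the stop codon and to scale. Hmga2, Igf2bp1 and Lin28b hold 4 each, Lin28a 2, and Hmga1, Igf2bp2 and Igf2bp3 1 each, and red marks a match followed by A.

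The values are RPKM, reads per kilobase of transcript and scaled to the size of the library, as the authors computed them, so levels can be set side by side between genes. Depth was estimated from the steps between low values at 8.53 to 10.4 M reads in the replicate 1 libraries and 4.27 to 4.73 M in the replicate 2 libraries. Total tumor replicate 2 stood apart from the other libraries in its dependence on transcript length. Against the mean of all libraries, its genes with transcripts of up to 1687 bases had a median log2 value of 0.78. Such short transcripts lay between -0.51 and 0.22 in the other 7 libraries. In Total tumor replicate 2, genes with 4200.5 bases or more had -0.27, which did not stand apart. Long transcripts lay at 0.30 and 0.38 in LLC and at -0.44 and -0.18 in TAM. They lay at -0.26 and -0.13 in Fibroblast and at 0.38 in Total tumor replicate 1. Macrophage and fibroblast markers were highest in the libraries sorted for them. The sum of 9 macrophage markers was 19304 and 14953 RPKM in TAM, 77.8 and 491 in LLC, 204 and 262 in Fibroblast and 1397 and 3968 in Total tumor. The sum of 9 fibroblast markers was 24462 and 22983 RPKM in Fibroblast, 3726 and 4969 in LLC, 225 and 726 in TAM and 2759 and 2172 in Total tumor. In LLC most of that sum was Col3a1, at 2824 ± 448 RPKM (SD, n = 2). Dcn, Lum and Pdgfra were also present, with means of 783, 428 and 45.6 RPKM in LLC, against 3113, 642 and 124 in Fibroblast. Col1a1, Col1a2, Pdpn, Fap and Clec3b kept a smaller share in LLC, as with Col1a1 at 134 against 4757. Sums of endothelial, T and NK cell, neutrophil and pericyte markers were at most 11.5 RPKM in each LLC library. The stromal sorts held markers of further cell types. Pericyte markers summed to 206 and 143 RPKM in Fibroblast, against 24.4 and 18.5 in Total tumor, and endothelial markers summed to 52.7 and 51.0 RPKM in Fibroblast, against 33.9 and 27.2 in Total tumor. The endothelial markers were divided, with Tek and Kdr higher in Fibroblast than in Total tumor (means of 25.8 and 13.5, against 0.94 and 1.85). Pecam1, Cdh5 and Emcn were lower in Fibroblast (means of 5.05, 5.34 and 2.2, against 14.4, 7.73 and 5.7). In TAM, neutrophil markers summed to 69.2 and 60.4 RPKM, against 133 and 597 in Total tumor. T and NK cell markers summed to 15.7 and 20.8 RPKM in TAM, against 43.1 and 10.4. Both of these lists were divided as well. Csf3r and Cd2 were higher in TAM than in Total tumor (means of 31.0 and 13.3, against 13.8 and 8.54). The other neutrophil markers (S100a8, S100a9, Cxcr2 and Retnlg) were lower in TAM by mean. So were the other T and NK cell markers (Cd3e, Cd3g, Nkg7 and Gzma). The part of these cells in the stromal levels was not tested.

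Hmga1, Hmga2 and Igf2bp2 were the abundant members. Igf2bp1, Igf2bp3 and Lin28b also had LLC as the highest sorted population, at 2.76 ± 0.426 RPKM or less on average (SD, n = 2), and Lin28a was listed at 0 in all 8 libraries. By mean RPKM in LLC the order was Hmga1, Hmga2, Igf2bp2, Igf2bp1, Igf2bp3 and Lin28b. The leading 3 were not separated beyond their spread, since both LLC values of Hmga2 and both of Igf2bp2 lay between the 2 LLC values of Hmga1. Igf2bp1 and Igf2bp3 also overlapped in LLC, whereas both LLC values of Lin28b lay below those of Igf2bp3. Both LLC libraries lay above both libraries of each sorted stromal group for these 6 genes, as they did for 56.6% of all tested genes against Fibroblast and for 50.9% against TAM. The ratio of means did not follow abundance. Against Fibroblast it was highest for Hmga2 (55.6) and Igf2bp1 (42.4), and against TAM for Igf2bp1 (26.8) and Hmga2 (20.8), among the 5 members with reads in those groups. The Igf2bp1 ratios rest on an estimated 6.95 and 1.98 reads in Fibroblast and 10.9 and 1.98 in TAM, so its order beside Hmga2 is uncertain.

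**Figure D2:**
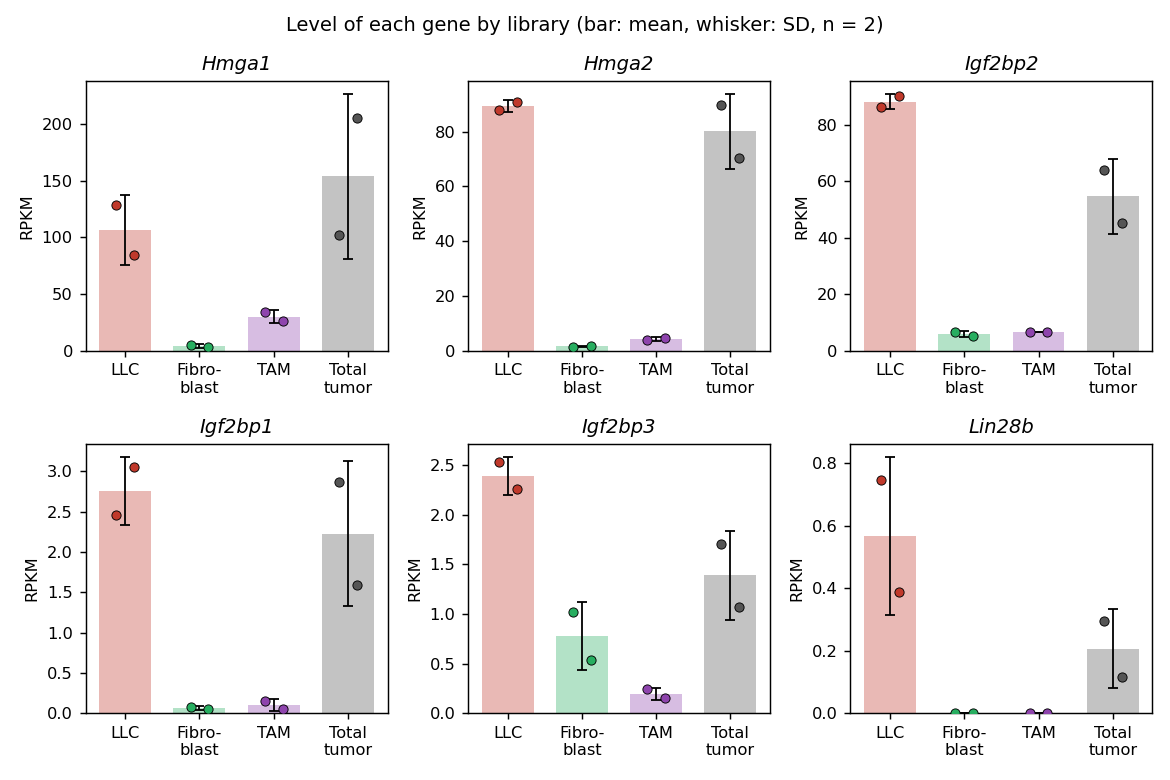
RPKM of 6 genes in each library (points), with group mean (bar) and SD (whisker, n = 2), on axes that start at 0 and differ between panels. Both LLC libraries lie above both Fibroblast and both TAM libraries for every gene shown, and Lin28b is listed at 0 in Fibroblast and TAM.

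Hmga2 (NM_010441, chromosome 10, 3710 bases, 5 exons) had 87.9 and 90.9 RPKM in LLC, 1.45 and 1.77 in Fibroblast, 3.86 and 4.76 in TAM, and 89.7 and 70.3 in Total tumor. LLC and Total tumor were both far above the sorted stromal cells, and the 2 TAM libraries lay above the 2 Fibroblast libraries. LLC averaged 89.4 ± 2.13 RPKM, against 1.61 ± 0.223 in Fibroblast, a ratio of means of 55.6, and against 4.31 ± 0.636 in TAM, a ratio of 20.8. On the log2(RPKM + 1) scale used for all tests, which understates changes of low genes, the difference was 5.12 for LLC minus Fibroblast (SE 0.23, adjusted p = 0.000272, limma) and 4.10 for LLC minus TAM (SE 0.23, adjusted p = 0.000113, limma). Fibroblast lay 1.02 below TAM (log2 -1.02, SE 0.23, adjusted p = 0.0107, limma). That last call ended without Fibroblast replicate 1 (0.0791), without TAM replicate 2 (0.0713) and with a pseudocount of 5 (0.0884), in a range of 0.00391 to 0.0884 over its alternatives.

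A processed copy, Hmga2-ps1 on chromosome 1, is listed in the same table and followed Hmga2 in part. It had 24.1 ± 2.12 RPKM in LLC, 7.07 ± 0.646 in Fibroblast and 25.1 ± 4.53 in TAM (SD, n = 2). Like Hmga2, it was higher in LLC than in Fibroblast (log2 1.64, adjusted p = 0.00303, limma) and lower in Fibroblast than in TAM (log2 -1.68, adjusted p = 0.00181, limma). Its difference for LLC minus TAM was -0.05 and did not pass (adjusted p = 0.909, limma), where that of Hmga2 was 4.10. Hmga2 over this copy was 3.89 and 3.55 in LLC, 0.219 and 0.235 in Fibroblast, 0.136 and 0.218 in TAM, and 4.49 and 2.39 in Total tumor. In TAM and Fibroblast the copy was thus listed above the gene itself, and whether reads were exchanged between them was not tested.

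Hmga1 (NM_001166542, chromosome 17, 1631 bases), the other AT-hook gene, had 129 and 84.8 RPKM in LLC, 5.22 and 3.21 in Fibroblast, 34.0 and 26.3 in TAM, and 102 and 205 in Total tumor. It differed from Hmga2 in TAM, where it kept 28.2% of the LLC mean against 4.82% for Hmga2. The ratio of Hmga2 to Hmga1 was 0.683 and 1.07 in LLC, 0.278 and 0.550 in Fibroblast, 0.114 and 0.181 in TAM, and 0.876 and 0.343 in Total tumor, so TAM had the lowest 2 values. LLC minus Fibroblast was 4.36 (SE 0.39, adjusted p = 0.00037, limma) and Fibroblast minus TAM was -2.59 (SE 0.39, adjusted p = 0.00147, limma). LLC minus TAM was 1.77 (SE 0.39, adjusted p = 0.00888, limma). The call against TAM ended without LLC replicate 1 (0.0711), without TAM replicate 2 (0.0604) and with no filter on low values (0.0556), in a range of 0.00197 to 0.0711 over its alternatives.

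The level of Hmga1 is uncertain, since the sources used here do not say how reads that fit several places in the genome were counted. The 14 Hmga1 transcripts in the table had like values, the lowest standing at 0.837 to 0.870 of the highest in each library.

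Igf2bp2 (NM_183029, chromosome 16, 3899 bases, 16 exons) was the main RNA-binding member of its family. It had 86.4 and 90.2 RPKM in LLC, 6.65 and 5.04 in Fibroblast, 6.49 and 6.61 in TAM, and 64.1 and 45.4 in Total tumor. Both LLC libraries lay above all others, and Fibroblast and TAM overlapped. LLC minus Fibroblast was 3.72 (SE 0.25, adjusted p = 0.000272, limma) and LLC minus TAM was 3.56 (SE 0.25, adjusted p = 0.000125, limma), ratios of means of 15.1 and 13.5. Fibroblast minus TAM was -0.15 (SE 0.25, adjusted p = 0.695, limma), which does not show that the stromal levels are equal. Igf2bp2 made up 94.5 and 94.4% of the summed RPKM of the 3 Igf2bp genes in LLC, 85.8 and 89.6% in Fibroblast, 94.3 and 97.0% in TAM, and 93.4 and 94.4% in Total tumor.

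Igf2bp1 (NM_009951, chromosome 11, 8378 bases, 15 exons), the member best known for guarding Myc messenger RNA, had 2.46 and 3.06 RPKM in LLC, 0.08 and 0.05 in Fibroblast, 0.153 and 0.053 in TAM, and 2.86 and 1.59 in Total tumor. Behind the stromal values stood an estimated 6.95 and 1.98 reads in Fibroblast and 10.9 and 1.98 in TAM, against 214 and 109 in LLC. At this depth Igf2bp1 was thus near the limit of detection outside the cancer cells. LLC minus Fibroblast was 1.81 (SE 0.28, adjusted p = 0.00228, limma) and LLC minus TAM was 1.76 (SE 0.28, adjusted p = 0.00178, limma).

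Igf2bp3 (NM_023670, chromosome 6, 4345 bases, 15 exons), often used as an oncofetal tumor marker in human pathology, had 2.53 and 2.26 RPKM in LLC, 1.02 and 0.534 in Fibroblast, 0.242 and 0.154 in TAM, and 1.71 and 1.07 in Total tumor. It was the member with the highest share of the LLC mean in Fibroblast, 32.5%, and both Fibroblast libraries lay above both TAM libraries. Fibroblast minus TAM was 0.56 and did not pass (SE 0.27, adjusted p = 0.158, limma). LLC minus TAM was 1.50 (SE 0.27, adjusted p = 0.00335, limma). LLC minus Fibroblast was 0.95 (SE 0.27, adjusted p = 0.0274, limma), a call that ended without LLC replicate 1 (0.133), LLC replicate 2 (0.0856) or Fibroblast replicate 2 (0.143), after upper-quartile rescaling (0.121), after a length correction (0.36) and with a pseudocount of 0.1 (0.0656). Its adjusted p ranged from 0.0135 to 0.36 over the alternatives.

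Lin28b (NM_001031772, chromosome 10, 5402 bases), the nuclear let-7 inhibitor, had 0.747 and 0.388 RPKM in LLC and 0.296 and 0.118 in Total tumor, and was listed at 0 in both Fibroblast and both TAM libraries. The LLC values correspond to an estimated 42.0 and 8.95 reads and the Total tumor values to 15.9 and 3.02. A floor of 3 reads over both libraries of a group is 0.0368 RPKM in Fibroblast and 0.0427 in TAM. The observed LLC mean stood 15.4-fold above that floor in Fibroblast and 13.3-fold above it in TAM. These ratios allow for counting error in Fibroblast and TAM but not for the error of the LLC mean, and they rest on the estimated depth. Lin28b did not reach 1 RPKM in 2 libraries and was not tested with the other genes. In a fit with no filter, its LLC minus TAM and LLC minus Fibroblast differences had adjusted p = 0.031 and 0.0337 (limma).

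Lin28a (NM_145833, chromosome 4), the largely cytoplasmic paralog known from pluripotent stem cells, was listed at 0 in all 8 libraries. A count of 0 allows a level of up to 0.0823 to 0.200 RPKM in a single library, so expression below that was not detectable at this depth.

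The annotation places an exon of another gene on the opposite strand over exons of Hmga1 (AI413582), Hmga2 (1700006J14Rik), Igf2bp1 (Gm29202), Igf2bp3 (Malsu1) and Lin28a (Gm13061), and none over Igf2bp2 and Lin28b. Igf2bp1 also overlaps Mir3063 on its own strand. The strand setting of the counting is not given in the sources used here, so reads from shared stretches cannot be told apart. The length of these stretches was not measured.

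Counted together, the 5 members tested were higher in LLC than in TAM and higher in LLC than in Fibroblast, 5 of 5 in each. Over all 13311 genes tested, 27.5% were called higher and 15.4% lower in LLC than in TAM, and 25.7% higher and 13% lower in LLC than in Fibroblast. Igf2bp1 and Igf2bp3 reached the filter only through LLC and Total tumor (Igf2bp3 also reached 1 RPKM in 1 Fibroblast library), so a count over the tested members is not support for the set. The median log2 difference of the 5 was 1.77 for LLC minus TAM and 3.72 for LLC minus Fibroblast, beside 0.38 and 0.46 over all genes. Upper-quartile rescaling moved the medians of all genes to 0.21 and 0.05, and the members of both comparisons kept their direction.

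Between the stromal populations, Hmga1 and Hmga2 were lower in Fibroblast than in TAM and the 3 Igf2bp genes did not pass. Over all genes, 17.4% were called lower and 17.3% higher in Fibroblast. The members' median was -0.15, beside -0.13 over all genes.

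**Figure D3:**
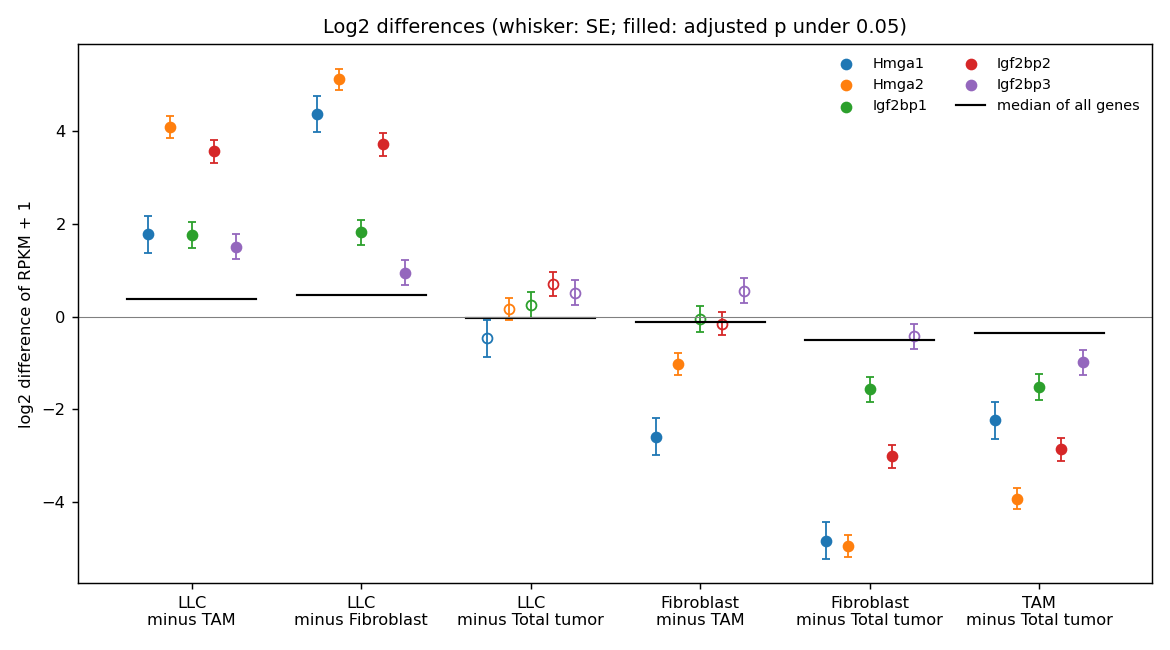
Log2 differences of RPKM + 1 for the 5 tested genes in 6 comparisons, with SE whiskers, filled where the adjusted p was under 0.05 (limma), and with black lines for the median of all 13311 genes. All 5 lie above the median of all genes for LLC minus TAM and LLC minus Fibroblast, and none is called for LLC minus Total tumor.

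Set against Total tumor, LLC showed no called member. Over all genes, 0.0526% were called higher and 2.3% lower in LLC, and 1423 of the 13311 had an unadjusted p under 0.05 (limma). Of the 5 members, 1 had an unadjusted p under 0.05. It was Igf2bp2, with 88.3 ± 2.70 RPKM in LLC and 54.7 ± 13.3 in Total tumor (log2 0.70, SE 0.25, unadjusted p = 0.0243, adjusted p = 0.312, limma). Without Total tumor replicate 1 it was called (log2 0.95, adjusted p = 0.0377), and its adjusted p ranged from 0.0377 to 0.945. Both LLC libraries lay above both Total tumor libraries for Igf2bp2, Igf2bp3 and Lin28b, as they did for 15.4% of all tested genes, and the groups overlapped for Hmga1, Hmga2 and Igf2bp1. Hmga1 was lower in LLC on average, at 107 ± 31.0 RPKM against 154 ± 72.6 in Total tumor (log2 -0.47, SE 0.39, adjusted p = 0.711, limma). Without Total tumor replicate 2, the library with the length dependence, the differences of Hmga1, Hmga2 and Igf2bp1 changed sign to 0.028, -0.0051 and -0.044, and those of Igf2bp2 and Igf2bp3 were 0.46 and 0.33. In whole tissue, fewer cells of a type and less RNA per cell cannot be told apart.

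The stromal populations were set against the whole tumor in the same way. In TAM all 5 tested members were lower than in Total tumor, where 23.9% of all genes were called lower. The log2 differences were -3.93 for Hmga2 (adjusted p = 0.000354), -2.86 for Igf2bp2 (adjusted p = 0.000528), -2.24 for Hmga1 (adjusted p = 0.00502), -1.52 for Igf2bp1 (adjusted p = 0.00564) and -0.98 for Igf2bp3 (adjusted p = 0.0257), all by limma. The Igf2bp3 call ended in 7 alternatives, among them quantile normalization (0.196) and fits without TAM replicate 1 (0.0894), TAM replicate 2 (0.116) or Total tumor replicate 1 (0.0579), in a range of 0.0177 to 0.196. In Fibroblast 4 of the 5 were lower than in Total tumor, beside 30% of all genes. They were Hmga2 (log2 -4.95, adjusted p = 0.000516), Hmga1 (-4.83, adjusted p = 0.000516), Igf2bp2 (-3.01, adjusted p = 0.000516) and Igf2bp1 (-1.57, adjusted p = 0.00421), by limma. Igf2bp3 had a difference of -0.43 (adjusted p = 0.232, limma). Without Total tumor replicate 2 the same 5 and 4 members passed. These comparisons share their Total tumor libraries.

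The levels in the sorted stromal cells can be read beside transcripts that mark the cancer cells. Dkk2, Apcdd1 and H19, which were chosen as LLC markers from earlier results of these libraries, stood at 4.68, 13.8 and 11.6% of their LLC mean in Fibroblast and at 2.02, 2.00 and 2.21% in TAM. In Fibroblast, Hmga1, Hmga2 and Igf2bp1 stood at 3.95, 1.80 and 2.36% of their LLC mean, Igf2bp2 at 6.62% and Igf2bp3 at 32.5%. In TAM, Igf2bp1 stood at 3.74%, Hmga2 at 4.82%, Igf2bp2 at 7.41%, Igf2bp3 at 8.28% and Hmga1 at 28.2%. By group mean, all 5 members lay above all 3 markers in TAM, although in TAM replicate 2 Igf2bp1 stood at 1.92%, Dkk2 at 2.47% and H19 at 2.66%. The H19 shares rest on an LLC mean of 253 ± 170 RPKM (SD, n = 2). Without LLC replicate 2, an alternative added after seeing the data, H19 stood at 22.1% in Fibroblast and 4.21% in TAM, where Igf2bp1 then stood at 4.19%. In Fibroblast, Igf2bp3 was the member above all 3. How much of the stromal levels came from cancer cell RNA was not tested.

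**Figure D4:**
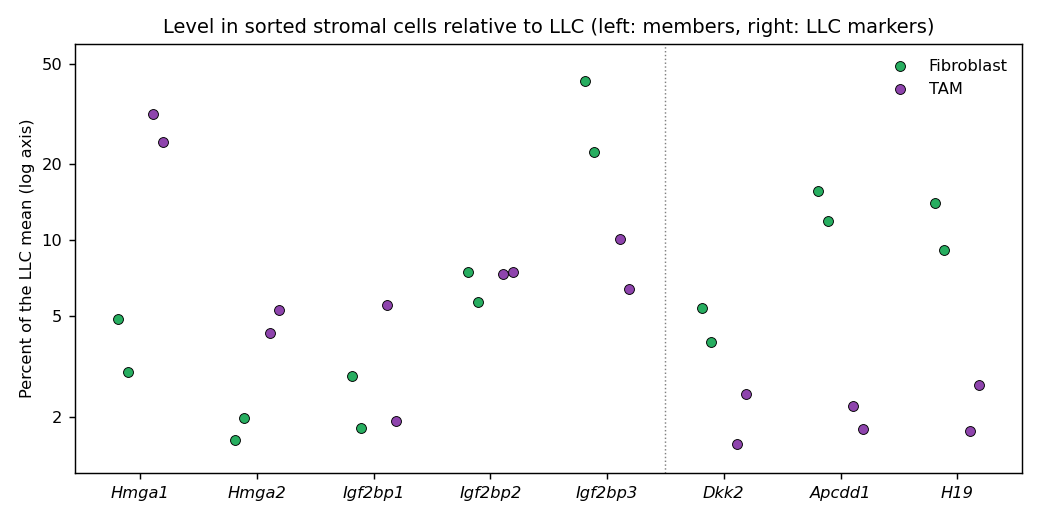
Level in each Fibroblast and TAM library as a percent of the LLC mean (log axis), for 5 members and, right of the dotted line, for 3 LLC markers. Igf2bp3 in Fibroblast (32.5% on average) and Hmga1 in TAM (28.2%) lie highest.

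Hmga2 and Igf2bp2 had LLC means of 89.4 and 88.3 RPKM, and since both were high in LLC and low in the stromal cells, the 250 bases before their annotated starts are printed, from RefSeq (GRCm38.p6). A GC box, GGGCGG or CCGCCC on either strand, is in capitals, and 32.7% of 32851 upstream regions of this length hold at least 1. Hmga2 has 1 and a GC content of 56.4%, and Igf2bp2 has 2 and a GC content of 77.2%. These files hold no binding or chromatin data, so the matches are a description of the letters.
Hmga2 upstream, chr10:120476470-120476719, minus strand: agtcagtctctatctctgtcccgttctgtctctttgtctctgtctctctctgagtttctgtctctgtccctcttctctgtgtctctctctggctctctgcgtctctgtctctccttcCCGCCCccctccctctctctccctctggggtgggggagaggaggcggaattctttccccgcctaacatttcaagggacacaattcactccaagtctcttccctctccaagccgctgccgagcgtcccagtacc
Igf2bp2 upstream, chr16:22163300-22163549, minus strand: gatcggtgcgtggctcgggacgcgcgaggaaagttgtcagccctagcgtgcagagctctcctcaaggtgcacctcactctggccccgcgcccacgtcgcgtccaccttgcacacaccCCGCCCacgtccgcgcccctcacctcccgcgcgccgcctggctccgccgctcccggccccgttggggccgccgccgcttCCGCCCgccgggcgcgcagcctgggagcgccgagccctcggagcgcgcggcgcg

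The let-7 pathway itself was read through lists chosen with earlier results of these data known. Of 14 let-7 and miR-98 hairpin loci in the table, 12 were listed at 0 in every library. Mirlet7b had 2.29 RPKM in LLC replicate 1 and in Fibroblast replicate 1, and Mirlet7e had 2.53 in LLC replicate 2. These values stand for an estimated 2.02, 2.01 and 1.00 reads. They lie below the level of 3 reads at such short loci, which is 3.39, 3.40 and 7.55 RPKM there, so a listed 0 says little. The libraries were primed on poly(A) tails and do not measure mature microRNAs.

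Of 10 tested genes that process or degrade let-7, 3 were higher in LLC than in TAM and none was lower, a share near the 27.5% of all genes called higher (15.4% were called lower), with a median of 0.82 beside 0.38 over all genes. Drosha, the nuclear enzyme that cuts primary microRNAs, had 26.2 ± 2.13 RPKM in LLC, against 7.50 ± 0.793 in TAM (log2 1.68, SE 0.22, adjusted p = 0.00073, limma). Xpo5, which exports the precursors, and Dgcr8, the partner of Drosha, also passed (log2 1.87 and 0.73, adjusted p = 0.0349 and 0.042, limma), and each lost the call in 10 of 19 alternatives. Dicer1, which makes the mature form, did not pass (9.22 ± 0.450 RPKM in LLC and 4.60 ± 1.84 in TAM). Against Fibroblast, 3 of 10 were higher in LLC (Drosha, Tarbp2 and Trim25) and none was lower, again near the 25.7% of all genes called higher, and each of the 3 lost its call in at least 1 alternative. Trim71, a further let-7 target and partner of the pathway, did not reach the filter and had 0.231 ± 0.117 RPKM in LLC, 0.0205 ± 0.0290 in Fibroblast and 0 in TAM.

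Of 10 tested genes known as let-7 targets other than the members, 4 were higher and 1 was lower in LLC than in TAM (median 0.94), beside 27.5% and 15.4% of all genes. Myc, the growth-driving transcription factor, had 284 ± 87.2 RPKM in LLC, against 32.7 ± 10.5 in TAM (log2 3.08, SE 0.45, adjusted p = 0.00129, limma). Igf1r, the receptor of insulin-like growth factors, had 11.5 ± 1.22 RPKM in LLC, against 1.99 ± 0.301 in TAM (log2 2.07, adjusted p = 0.00548, limma). Cdc25a and Ccnd1, which drive the cell cycle, were the other genes higher in LLC (log2 1.18 and 0.98), and both lost the call in some alternatives. Arid3b, an AT-rich DNA-binding factor, was the gene that lay lower, at 0.546 ± 0.163 RPKM in LLC, against 3.92 ± 0.700 in TAM (log2 -1.67, adjusted p = 0.00167, limma). Nras and Hras, small GTPases of growth signalling, did not pass (log2 0.32 and 0.00). Against Fibroblast, 4 of the 10 were higher in LLC, beside 25.7% of all genes, and none was lower (median 1.03, beside 0.46 over all genes), namely Myc (log2 2.02), Ccnd1 (1.83), Cdc25a (1.50) and Nras (1.02). The calls of Cdc25a and Nras ended in 6 and 5 of 19 alternatives. The Myc call against Fibroblast ended in 3 of 19 alternatives.

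Of 7 transcripts known to be bound by IGF2BP proteins, 4 were higher in LLC than in TAM, namely H19, Myc, Btrc and Gli1, and none was lower (median 0.87), beside 27.5% of all genes called higher and 15.4% lower. The calls of Btrc and Gli1 ended in 12 of 19 and 13 of 18 alternatives. H19, an imprinted noncoding RNA, had 253 ± 170 RPKM in LLC, 29.4 ± 8.85 in Fibroblast and 5.60 ± 1.61 in TAM. Actb, which encodes beta-actin, had 1405 ± 331 RPKM in LLC and 3927 ± 903 in TAM and did not pass, and Cd44, an adhesion receptor, had 71.3 ± 18.8 and 90.2 ± 12.8. Igf2, which gave the family its name, was low, with 1.06 ± 0.648 RPKM in LLC, 0.966 ± 0.881 in Fibroblast, 0.382 ± 0.272 in Total tumor and a listed 0 in TAM. Against Fibroblast, 3 of the 7 were higher in LLC, namely H19, Myc and Cd44, beside 25.7% of all genes, none was lower (median 0.81), and each of these calls ended in at least 1 alternative.

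Other oncofetal genes divided between the populations. Of 6 tested, H19, Peg10 and Plag1 were higher in LLC than in TAM and none was lower (median 1.37), beside 27.5% of all genes called higher and 15.4% lower. Peg10, an imprinted gene of retrotransposon origin, had 14.4 ± 1.74 RPKM in LLC, 4.03 ± 1.01 in Fibroblast and 0.499 ± 0.335 in TAM. Plag1, a zinc finger factor known to activate Igf2, had 3.19 ± 1.17 RPKM in LLC and 0.141 ± 0.00636 in Fibroblast. The same 3 were higher in LLC than in Fibroblast, and Gpc3 and Dlk1 were lower (median 0.87), beside 25.7% of all genes called higher and 13% lower. Plag1 reached the filter only through LLC and Total tumor, and Dlk1 only through Fibroblast. The counts of this list against TAM and against Fibroblast are thus not support for a pattern. The calls of Plag1 against TAM and of H19, Peg10 and Plag1 against Fibroblast each ended in at least 1 alternative. Gpc3, a glypican of fetal liver and of hepatocellular carcinoma, had 4.39 ± 2.53 RPKM in LLC and 253 ± 19.98 in Fibroblast (log2 -5.64, SE 0.74, adjusted p = 0.00125, limma). Dlk1, a Notch-related membrane protein of fetal tissues, had 0.0445 ± 0.0629 in LLC and 4.27 ± 2.54 in Fibroblast. The fetal genes Afp and Sall4 did not reach the filter, and Sall4 was listed at 0 in LLC, Fibroblast and TAM.

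The other high mobility group genes, which encode the HMGB and HMGN chromatin proteins, were mostly higher in LLC. Of 7, 5 were higher and 1 was lower in LLC than in TAM (median 1.59), beside 27.5% and 15.4% of all genes, and 4 of these 6 calls held in every alternative. Hmgn3 had 87.1 ± 15.9 RPKM in LLC and 8.05 ± 1.05 in TAM (log2 3.28, adjusted p = 0.000254, limma), and Hmgn1 had 75.1 ± 10.1 and 13.7 ± 1.80. Hmgn2 was the gene that lay lower, at 2.39 ± 0.214 in LLC and 8.59 ± 0.245 in TAM (log2 -1.50, adjusted p = 0.00369, limma). Against Fibroblast 6 of 7 were higher in LLC and none was lower (median 1.59), beside 25.7% of all genes called higher. Of these 6 calls 2 held in every alternative, namely Hmgb2 and Hmgn5 (Hmgn5 with 25.6 ± 0.768 RPKM in LLC, against 4.20 ± 0.646 in Fibroblast). The calls of Hmgb3, Hmgn3 and Hmgn1 ended in 12 of 18, 11 of 19 and 10 of 19 alternatives, and that of Hmgb1 in 2 of 19. Hmgb3 reached the filter only through LLC and Total tumor. Genes of these families have many processed copies in the mouse genome, so their levels are uncertain.

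Proliferation genes were also mostly higher in LLC than in the sorted stromal cells. Their summed level over 11 genes was 509 and 347 RPKM in LLC, 89.6 and 55.8 in Fibroblast, 154 and 151 in TAM, and 570 and 528 in Total tumor. Of the 11, 8 were higher in LLC than in TAM (median 1.60), and 11 were higher than in Fibroblast (median 2.35), with none lower, beside 27.5% and 25.7% of all genes called higher. In every alternative 3 of the 8 calls against TAM held (Mcm2, Mcm5 and Top2a) and 7 of the 11 against Fibroblast. Against TAM the calls of Mki67 and Plk1 ended in 10 and 8 of 19 alternatives. The DNA-winding enzyme Top2a had 83.9 ± 15.2 RPKM in LLC and 18.5 ± 1.16 in TAM. The part of cell division in the members' levels was not tested. Against Total tumor, 0 of the 47 tested genes of these 6 lists passed in LLC, and 3 had an unadjusted p under 0.05 (limma).

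**Figure D5:**
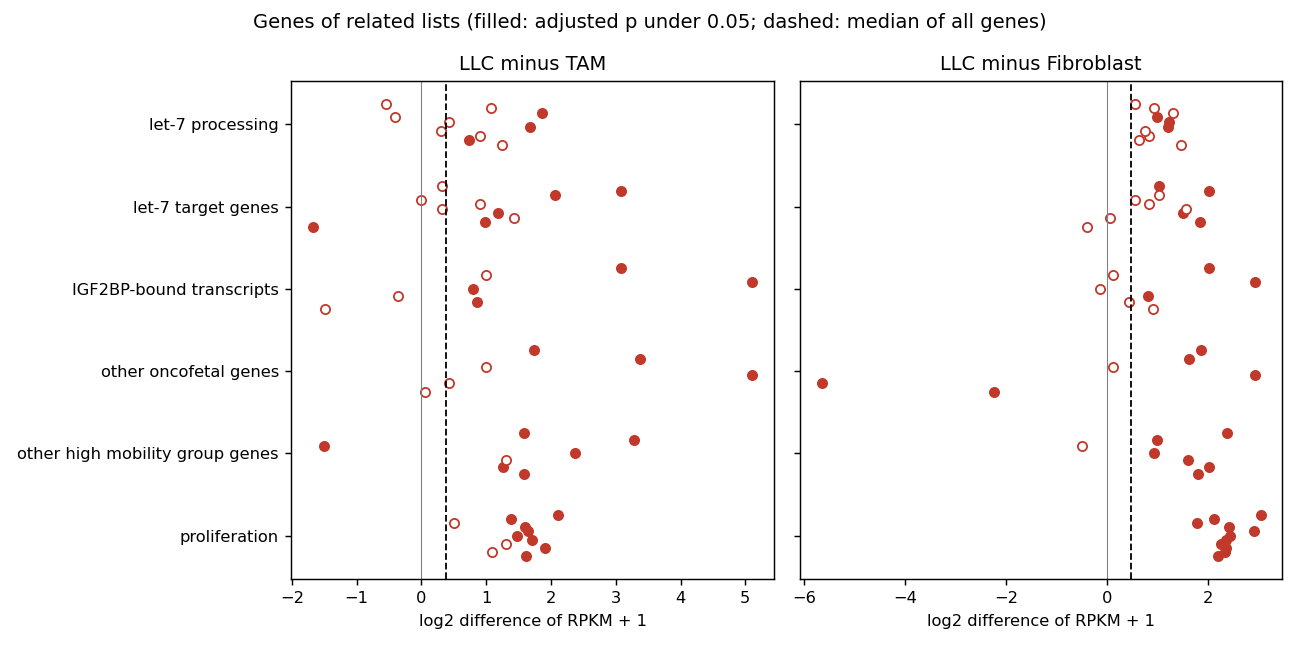
Log2 differences of RPKM + 1 for the tested genes of 6 lists (points, filled where the adjusted p was under 0.05, limma), for LLC minus TAM and LLC minus Fibroblast, with the median of all genes dashed. Most called genes lie to the right, with Arid3b and Hmgn2 called to the left against TAM and Gpc3 and Dlk1 against Fibroblast.

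The genes whose levels followed each member most closely over the 8 libraries were taken from 10604 candidates by Pearson's r of log2(RPKM + 1). For Hmga1 they were Pcid2 (r = 0.9971), Acot7 (0.9954) and Zfp706 (0.9954). For Hmga2 they were 1700030K09Rik (0.9965), the urea transporter gene Slc14a1 (0.996) and Serbp1 (0.9957). Slc14a1 had 23.7 and 25.6 RPKM in LLC, 0.24 and 0 in Fibroblast, 1.39 and 1.12 in TAM, and 22.1 and 16.6 in Total tumor. For Igf2bp1 they were the potassium channel gene Kcnq5 (0.9959), the telomere-binding factor gene Terf1 (0.9947) and the cell cycle gene Cdca7 (0.9944). For Igf2bp2 they were the kinase gene Map3k4 (0.9978), Ubqln4 (0.9964) and the homeobox gene Dlx1 (0.996). Dlx1 had 16.4 and 14.3 RPKM in LLC, 0.242 and 0.076 in Fibroblast, 0.126 and 0.08 in TAM, and 13.99 and 8.46 in Total tumor. For Igf2bp3 they were Phf13 (0.9916), the guidance cue gene Sema3a (0.9855) and Hp1bp3 (0.985). The points of these correlations are 8 libraries in 4 groups, so r mostly reflects the group levels, and over the 4 group means other genes led for each member.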

How the data were processed

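RNA from 4 groups of 2 libraries was sequenced, and the groups were taken from the labels. Per the labels' protocols, 200 ng of RNA per library went into poly(dT)-primed cDNA and an NEBNext library, read at 50 bp on a HiSeq1500. The authors deposited RPKM values for 31645 RefSeq transcripts; the submitters' processing notes name STAR, HOMER and the genome build mm9, but the sources used here do not give filters, versions or the strand setting. From these values, 1 transcript per symbol was kept (highest mean over the 8 libraries), and 3 nameless transcripts were left out. The 13311 genes that reached 1 RPKM in 2 or more libraries entered the tests, on log2(RPKM + 1) with limma 3.58.1 in R 4.3.3, in 1 fit of 4 group means with a variance trend (4 residual and 3.62 prior degrees of freedom). Benjamini-Hochberg adjusted p-values under 0.05 were called, and tests are 2-sided. The members and all lists were chosen with earlier results of these data known. The named genes are the members, the genes of the lists and the 3 genes most like each tested member, except that 3 genes are not reported here and were left out of the lists and candidates; the fit was tested on simulated data.

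Depth was estimated as the number of reads at which low RPKM values, multiplied by transcript length (GENCODE M21, matched by RefSeq accession for 97.4% of transcripts), became whole. Between 58.9 and 63.7% of them lay within 0.05 of a whole number. RPKM are not counts, so no count test was used, and the 2 libraries of a group set the precision. Coordinates and sequences come from GRCm38, a later build than that of the values, through accessions and symbols.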

Additional observations from a re-analysis of the deposited data

How the results depend on the processing

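Results were refitted with pseudocounts of 0.1 and 5, without the filter, with a filter at 5 RPKM, with upper-quartile and quantile rescaling, a length correction, no variance trend, only the groups compared, a replicate block, the mean over transcripts, and leaving out each library. Of 564 refitted member differences, 537 were counted as the same, 19 lost a call, 1 gained one and 7 changed sign. For the tested members, the same means that direction and side of the threshold were kept. Lin28b enters that total only through the fit with no filter. It had no adjusted p in the main fit, so there Lin28b was counted as the same by the size of its difference alone. Its differences for LLC minus TAM and LLC minus Fibroblast ranged from 0.154 to 2.685 over the pseudocounts and other alternatives. Each moved by its spread between libraries or more in 4 of 15 alternatives. The sign changes were in differences that were not called. They were Igf2bp2, Fibroblast minus TAM, at 0.11 after upper-quartile rescaling and 0.020 without Fibroblast replicate 2 (-0.32 to 0.020 with a library left out); Igf2bp1, LLC minus Total tumor, at -0.12 after the length correction and -0.044 without Total tumor replicate 2 (-0.044 to 0.53); Hmga1 and Hmga2, LLC minus Total tumor, at 0.028 and -0.0051 without that library (-0.97 to 0.028 and -0.0051 to 0.34); and Igf2bp1, Fibroblast minus TAM, at 0.016 without TAM replicate 1 (-0.11 to 0.016). Of 1077 refits of called list genes, 876 kept the call, 201 lost it and 0 changed sign. Of 27 list genes called for LLC minus TAM, 13 kept the call in every alternative run, and of 30 for LLC minus Fibroblast, 12 did.

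The number of genes called for LLC minus Total tumor was the least stable count. It was 313, and became 180 with a pseudocount of 5, 12 with no filter, 202 after upper-quartile rescaling, 0 with only the 2 groups compared, and 0 to 2420 when libraries were left out, with 2420 without Total tumor replicate 1. For TAM minus Total tumor it was 4690, and became 3098 with no filter, 1905 with only the 2 groups and 2389 to 5990 with a library left out. For Fibroblast minus Total tumor it was 5601, and became 3220 with only the 2 groups and 2366 to 7193 with a library left out. For LLC minus TAM and LLC minus Fibroblast it was 5707 and 5142, with 3418 to 7354 and 2306 to 7146 when a library was left out. The filter at 5 RPKM removed Igf2bp1 and Igf2bp3 and so left 3 members called for LLC minus TAM, LLC minus Fibroblast and TAM minus Total tumor. The members called lower for Fibroblast minus TAM were 1 instead of 2 with a pseudocount of 5, and 1 to 2 with a library left out. The members called higher for LLC minus Total tumor were 0 to 1 with a library left out. Where a cause is not given here, the cause was not tested.

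Replicate numbers come from the labels, which do not say what they mark. Deviations of same-numbered libraries correlated at -0.36 to 0.27 between groups, so the numbers were not taken as pairs. With the replicate block, 5078, 4393 and 259 genes were called for LLC minus TAM, LLC minus Fibroblast and LLC minus Total tumor, and the members called were 5, 5 and 0 as without it. With 4.27 to 10.4 M reads, a count of 0 still allows up to 0.200 RPKM of Lin28a in the shallowest library, and up to 0.0536 to 0.124 RPKM of Lin28b in the single Fibroblast and TAM libraries.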
